A study of Homo sapiens with 6 samples.

Results

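The genes described here are 32 genes of the integrated stress response, built around the transcription factor ATF4. They were taken by symbol from a table of 58735 gene rows, each symbol matched 1 row, and all 32 were among the 18751 genes with enough reads to test. The list holds 5 eIF2 kinases and phosphatase subunits, 8 transcription factors, 4 stress effectors, 6 enzymes of serine and one-carbon metabolism, 6 other amino acid enzymes and 3 secreted or surface proteins. The rule that picks their rows uses symbols only, but the list itself was chosen with earlier results of these data known.

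RNA was sequenced from 3 samples of PANC1OR and 3 samples of PANC1, and the sample titles do not say whether these were separate cultures. PANC1OR is an oxaliplatin-resistant line that was obtained from PANC1 by passage in rising doses of the drug and that kept its phenotype in drug-free medium and after freezing and thawing. PANC1 is the untreated parental line, an established human line of pancreatic ductal carcinoma. Both were grown in DMEM with fetal bovine serum. As 1 resistant line was set against 1 parental line, the p-values reflect how samples of these lines vary and say nothing of other selected lines. The sources used here leave unsaid whether oxaliplatin was in the medium when RNA was taken.

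The integrated stress response is a way for cells to slow protein synthesis and to change their transcription at the same time. Kinases that sense heme shortage, unfolded protein in the endoplasmic reticulum or missing amino acids phosphorylate the initiation factor eIF2, which lowers translation of most messages but favours that of a few, ATF4 among them. ATF4 then binds DNA with C/EBP partners and raises genes for amino acid supply, for shutting the response off and, if stress lasts, for cell death. ATF4 and eIF2 are controlled largely at the level of protein and phosphorylation, neither of which was measured.

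The libraries held 12623721 to 26394388 counted reads in PANC1OR and 10199268 to 15875431 in PANC1. Levels are given as CPM, the read count of a gene relative to the TMM-adjusted total of its library. PANC1OR replicate 3 stood apart from the other PANC1OR libraries: its genes of over 60% GC lay a median 1.33 log2 units above the mean of replicates 1 and 2, and for genes under 40% GC the median was -0.97. The same 2 medians for PANC1 replicate 2 against its group were 0.34 and -0.25. PANC1OR replicates 1 and 2 were very close to each other, with a chi-square of their gene counts of 3.99 per degree of freedom, against 115 to 143 for either with replicate 3 and 12.4 to 36.6 between PANC1 libraries. Every value given without PANC1OR replicate 3 therefore rests on 2 PANC1OR libraries that differ less than the PANC1 libraries do. Ductal line markers were mixed. KRT8 averaged 429 ± 251 CPM in PANC1OR and 484 ± 256 CPM in PANC1 (SD, n = 3 each), and KRT18 315 ± 114 and 338 ± 104 CPM. KRT19 averaged 23.3 ± 11.8 CPM in PANC1OR and 326 ± 121 CPM in PANC1. KRT7 was scarce, at 1.82 ± 1.37 CPM in PANC1OR and 0.747 ± 0.443 CPM in PANC1. In the same order, CDH1 had 5.67 ± 0.859 and 13.3 ± 0.178 CPM, and EPCAM 8.13 ± 2.05 and 14.1 ± 1.69 CPM. The mesenchymal gene VIM had 1954 ± 375 and 2779 ± 45.3 CPM. Of 16 markers of immune, endothelial, erythroid, acinar, endocrine and fibroblast cells, 4 had no read, and the most any of them had over all 6 libraries was 101 reads.

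Of the 32 genes, 17 were higher in PANC1OR than in PANC1 at an adjusted p under 0.05, and 1, VLDLR, was lower. Over all 18751 tested genes the shares were 10.3% higher and 7.5% lower, 17.8% in all. The other 14 genes did not pass. The median log2 fold change, PANC1OR over PANC1, was 0.86 over the 32 genes and 0.04 over all tested genes. As the list was chosen with earlier results of these data known, these contrasts are a description and no independent support. The p-values come from edgeR's quasi-likelihood F test with Benjamini-Hochberg adjustment over all tested genes. The 17 genes include ATF4, its partner CEBPB, the death-linked factor DDIT3 and PHGDH, PSAT1 and ASNS of serine and asparagine synthesis, whereas the ATF5, ATF3 and VEGFA transcripts and the proline enzymes did not pass. In bulk RNA, a change in every cell and a change in the share of cells that express a gene cannot be told apart.

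Before any test, the libraries of the 2 lines did not overlap for 23 genes: 20 with every PANC1OR library above every PANC1 library (18.9% of all tested genes did this) and 3 the other way (17.6% of all tested genes). The remaining 9 overlapped. All 17 genes called higher were among the 20 with every PANC1OR library above every PANC1 library. As the calls rest on the same libraries, this is no further support. In 13 of the 17 the highest library was PANC1OR replicate 3. The shares of these 2 counts over all called genes were not worked out.

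**Figure D1:**
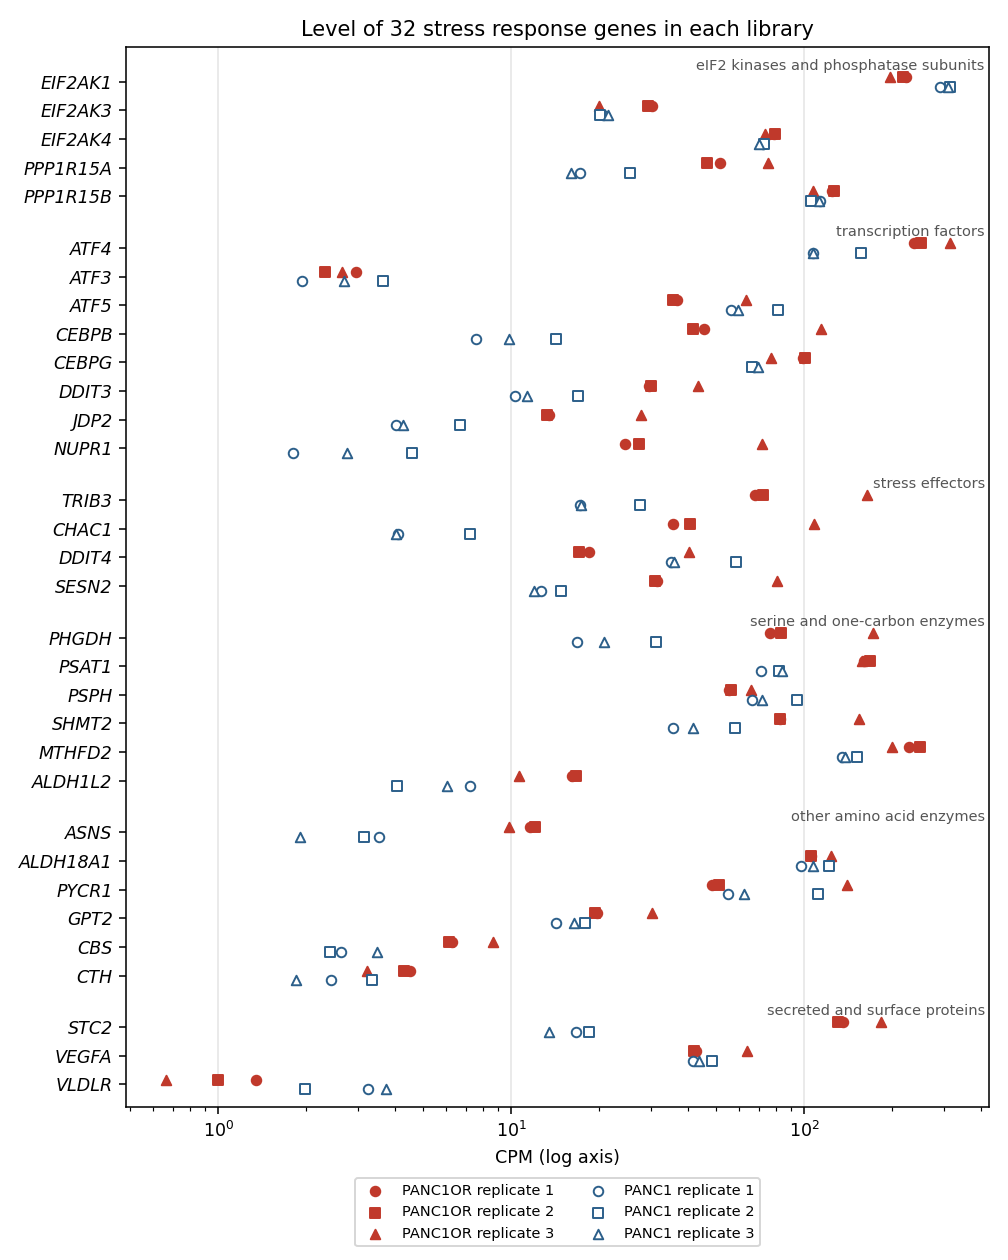
Level of every gene in every library, in CPM on a log axis, with filled red points for PANC1OR, open blue points for PANC1, a shape for each replicate and genes ordered by role. STC2, NUPR1, CHAC1, CEBPB and ASNS have PANC1OR points well clear of the PANC1 points, while ATF3, ALDH18A1, PYCR1 and VEGFA points of the lines overlap.

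ATF4 and the C/EBP factors are known to bind a composite element, TGATGNAA, and the promoters of these genes were searched for it on both strands from 250 bases before to 50 bases after the RefSeq transcript start (GRCh38.p14). Windows were matched for 24 of the 32 genes, 38 windows in all. The 8 genes without a window, not searched, were ALDH1L2, SHMT2, EIF2AK1, PYCR1, PSPH, NUPR1, GPT2 and VEGFA. The element was in 6 of the 38 windows, 1 each of ASNS, CHAC1, JDP2, CEBPG, ATF3 and PPP1R15B, against 3.62% of 35116 promoter windows of the genome. Of these 6, ASNS, CHAC1 and JDP2 were among the 17 called genes and the other 3 were not. The called genes NUPR1, SHMT2 and ALDH1L2 were among those not searched. The cyclic AMP element TGACGTCA was found in PPP1R15A alone (1.85% of windows), and the endoplasmic reticulum stress element (CCAAT, 9 free bases, CCACG) in none of the 24 genes (0.0769% of windows). A match is a description of these letters and not evidence of binding. The stretches are printed on the gene's own strand, 5′ to 3′, with the match in capitals, to show where the element lies in called and uncalled genes.
CHAC1, chr15:40953251-40953280, plus strand, match in reverse orientation, position -209 from the start: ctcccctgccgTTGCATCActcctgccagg
ASNS, chr7:97872458-97872487, minus strand, position -68: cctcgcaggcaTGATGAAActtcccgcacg
JDP2, chr14:75427980-75428021, plus strand, position -16: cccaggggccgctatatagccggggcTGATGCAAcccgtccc
CEBPG, chr19:33374045-33374104, plus strand, position -42: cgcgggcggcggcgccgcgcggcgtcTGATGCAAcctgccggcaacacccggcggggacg
ATF3, chr1:212565190-212565249, plus strand, position -191: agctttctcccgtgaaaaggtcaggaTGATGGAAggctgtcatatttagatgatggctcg
PPP1R15B, chr1:204412026-204412055, minus strand, position -227: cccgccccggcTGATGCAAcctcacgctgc
PPP1R15A, chr19:48872352-48872381, plus strand, cyclic AMP element at position -58: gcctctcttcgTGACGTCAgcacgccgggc

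Upstream of ATF4, none of the 3 eIF2 kinases on the list passed the test, and of the 2 regulatory subunits of the eIF2 phosphatase only PPP1R15A was higher. EIF2AK1, the heme-regulated kinase HRI (chromosome 7, 6022247 to 6059175, GRCh38), had 223, 217 and 197 CPM in PANC1OR replicates 1 to 3, against 291, 314 and 309 CPM in PANC1. Every PANC1OR library was below every PANC1 library. The log2 fold change was -0.52 ± 0.16 (SE) with an adjusted p of 0.0588, which fell to 0.00776 without PANC1OR replicate 3. EIF2AK1 shares 532 exonic bases with AIMP2 on the opposite strand, so part of its count may be reads of AIMP2. AIMP2 had 1673 reads over the PANC1OR libraries and 2417 over the PANC1 libraries.

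EIF2AK3, the kinase PERK that senses unfolded protein, had 30.2, 29.4 and 19.98 CPM in PANC1OR, against 20.5, 20.2 and 21.5 CPM in PANC1. Replicates 1 and 2 of PANC1OR lay above the PANC1 libraries and replicate 3 below them, so the groups overlapped. The log2 fold change was 0.36 ± 0.22 (adjusted p = 0.343), and without PANC1OR replicate 3 it was 0.51 (adjusted p = 0.00894). EIF2AK4, the amino acid sensor GCN2, had 78.7, 79.7 and 73.2 CPM in PANC1OR, against 72.1, 73.0 and 70.3 CPM in PANC1. These did not overlap, but they were close, with a log2 fold change of 0.11 ± 0.16 (adjusted p = 0.727).

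Per kilobase of all annotated exons, the kinases kept 1 order in both lines. EIF2AK1 came first at 38.6 ± 2.52 CPM per kb in PANC1OR and 55.5 ± 2.18 in PANC1. The double-stranded RNA sensor EIF2AK2 (PKR), which is not on the list, followed at 17.9 ± 6.34 CPM per kb in PANC1OR and 11.3 ± 0.609 in PANC1. The EIF2AK2 log2 fold change was 0.66 ± 0.28 (adjusted p = 0.156), and without PANC1OR replicate 3 it was 0.92 (adjusted p = 0.000261). EIF2AK4 had 6.44 ± 0.290 CPM per kb in PANC1OR and 5.99 ± 0.113 in PANC1, and EIF2AK3 had 1.28 ± 0.275 in PANC1OR and 1.00 ± 0.0325 in PANC1 (SD, n = 3 each). Each step in this order was larger than the SDs of its neighbours.

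PPP1R15A (GADD34) is the stress-induced subunit that brings the phosphatase to eIF2 and so ends the response. It had 51.5, 46.6 and 75.2 CPM in PANC1OR, against 17.2, 25.4 and 15.96 CPM in PANC1. All PANC1OR libraries were above all PANC1 libraries, with a log2 fold change of 1.57 ± 0.28 (adjusted p = 0.00600). Its constitutive counterpart PPP1R15B (CReP) ranged over 107 to 127 CPM in PANC1OR and 106 to 113 CPM in PANC1, a log2 fold change of 0.11 ± 0.17 (adjusted p = 0.717). The composite element printed above is thus in the window of PPP1R15B, the subunit that did not pass.

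Of the 8 transcription factors, 5 were higher in PANC1OR and none lower. ATF4 itself (chromosome 22, 39519695 to 39522683) had 236, 249 and 314 CPM in PANC1OR, against 108, 156 and 107 CPM in PANC1. The lowest PANC1OR library was above the highest PANC1 library, PANC1 replicate 2. The mean was 267 ± 41.6 CPM in PANC1OR and 124 ± 28.3 CPM in PANC1 (SD, n = 3 each), a 2.16-fold difference with a log2 fold change of 1.11 ± 0.22 (adjusted p = 0.0106). The call was lost without PANC1 replicate 1 (adjusted p = 0.0682) or PANC1 replicate 3 (adjusted p = 0.0731). Per kilobase of all annotated exons of a gene, a length that is greater for genes with many isoforms, ATF4 had 102 ± 15.9 CPM per kb in PANC1OR and 47.3 ± 10.8 in PANC1. Its processed pseudogenes took few reads: the one with most, ATF4P3, had 32 reads over the PANC1OR libraries and 10 over the PANC1 libraries.

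CEBPB, a C/EBP family protein that pairs with ATF4, had 45.4, 41.8 and 115 CPM in PANC1OR, against 7.60, 14.2 and 9.85 CPM in PANC1. PANC1OR replicate 3 was far above the other PANC1OR libraries, and all 3 were above PANC1. CEBPB had a log2 fold change of 2.68 ± 0.45 (adjusted p = 0.00477), and 2.06 without PANC1OR replicate 3. CEBPG, another ATF4 partner, had 77.3 to 101 CPM in PANC1OR and 66.3 to 69.4 CPM in PANC1, with no overlap. Its log2 fold change of 0.45 ± 0.18 did not pass (adjusted p = 0.140), while without PANC1OR replicate 3 it was 0.55 (adjusted p = 0.00273).

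DDIT3 (CHOP), the factor that links lasting stress to apoptosis, had 29.5, 29.97 and 43.4 CPM in PANC1OR, against 10.3, 16.9 and 11.3 CPM in PANC1. The groups did not overlap. DDIT3 had a log2 fold change of 1.42 ± 0.28 (adjusted p = 0.00945), a call that was lost without PANC1 replicate 1 (adjusted p = 0.0600) or replicate 3 (adjusted p = 0.0661). DDIT3 shares 355 exonic bases with MARS1 on the opposite strand. MARS1 was also higher, and the sources used here do not state whether reads were counted by strand, so part of the DDIT3 count may be reads of MARS1.

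NUPR1, a small stress-induced chromatin protein first described in pancreatitis, had 24.5, 27.2 and 71.8 CPM in PANC1OR, against 1.81, 4.60 and 2.75 CPM in PANC1. Even the lowest PANC1OR library was above 4.60 CPM by a wide margin. The difference was 13.7-fold, a log2 fold change of 3.78 ± 0.54 (adjusted p = 0.00215), and 3.14 on the log2 scale without PANC1OR replicate 3. It was the largest fold change among the 32 genes. NUPR1 shares 909 exonic bases with a long noncoding RNA gene on the same strand, so part of its count may belong to that gene. JDP2, a Jun dimerisation repressor that can pair with CHOP, had 13.5, 13.2 and 27.7 CPM in PANC1OR, against 4.05, 6.68 and 4.28 CPM in PANC1. The groups did not overlap. Its log2 fold change was 1.87 ± 0.37 (adjusted p = 0.0105), and the call was lost without PANC1 replicate 1 (adjusted p = 0.0625) or replicate 3 (adjusted p = 0.0674).

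ATF3 and ATF5, which lie downstream of ATF4 in many stress settings, did not pass the test. ATF3 had 2.95, 2.31 and 2.64 CPM in PANC1OR, against 1.93, 3.66 and 2.69 CPM in PANC1. The lines overlapped completely, with a log2 fold change of -0.04 ± 0.31 (adjusted p = 0.950). ATF5, also translated preferentially when eIF2 is phosphorylated, ranged over 35.7 to 63.4 CPM in PANC1OR and 56.3 to 81.4 CPM in PANC1. Its log2 fold change was -0.53 ± 0.28 (adjusted p = 0.254), and without PANC1OR replicate 3 it was -0.86 (adjusted p = 0.00402), the opposite direction to ATF4. ATF5 shares 565 exonic bases with NUP62 on the opposite strand.

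**Figure D2:**
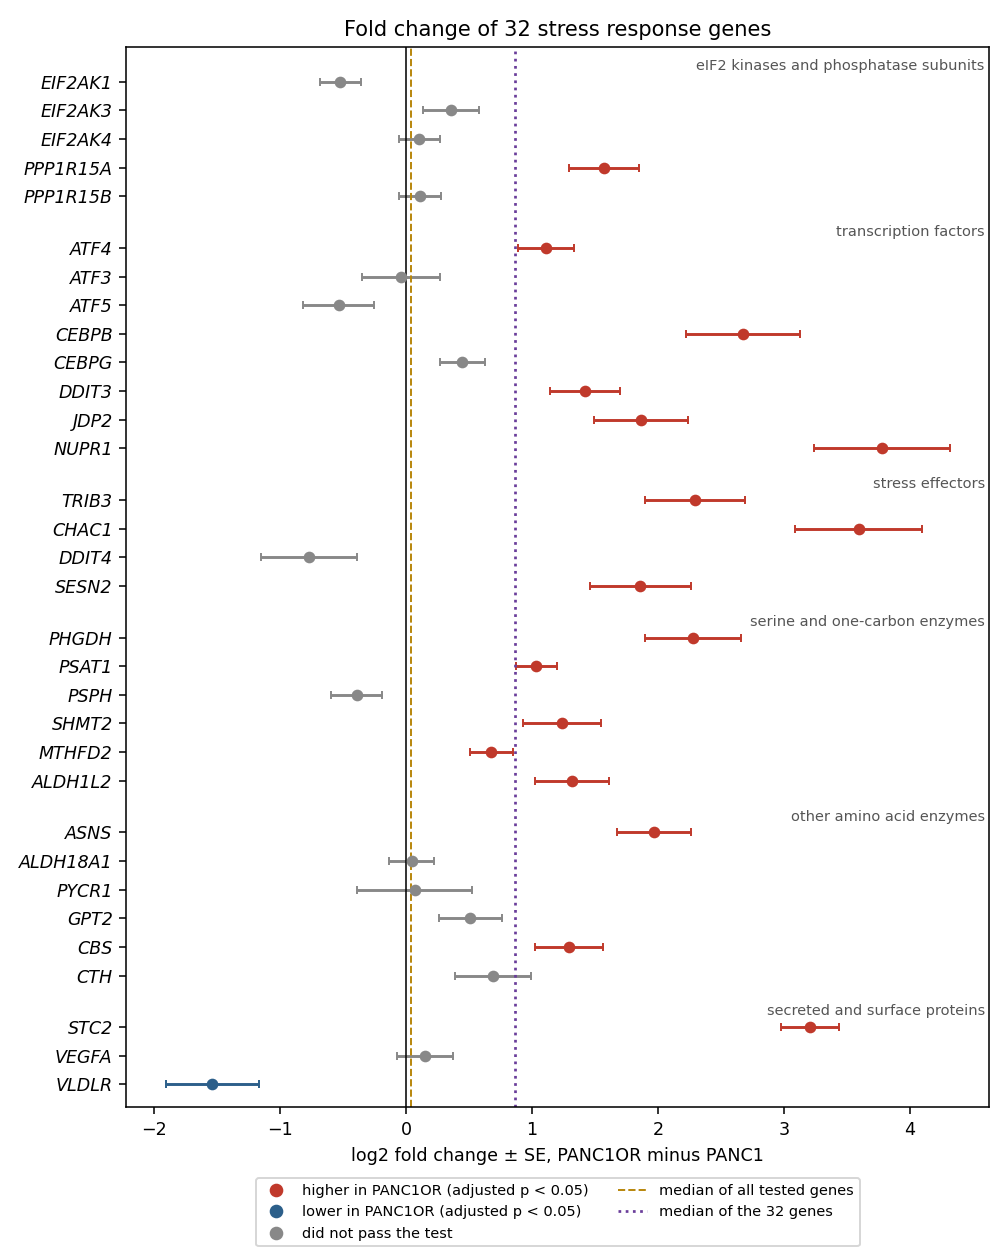
Log2 fold change of each gene, PANC1OR over PANC1, with bars of 1 SE, red for genes higher and blue for genes lower at an adjusted p under 0.05 and grey for the others, ordered by role; the dashed and dotted lines mark the medians of all tested genes and of the 32 genes. The 17 higher genes lie between 0.68 and 3.78, and VLDLR, the 1 lower gene, lies at -1.54.

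Of the 4 stress effectors, TRIB3, CHAC1 and SESN2 were higher and DDIT4 did not pass. CHAC1 breaks down glutathione inside the cell and is a well-known target of ATF4. It had 35.5, 40.8 and 108 CPM in PANC1OR, against 4.11, 7.21 and 4.04 CPM in PANC1. All PANC1OR libraries were above all PANC1 libraries, with a log2 fold change of 3.60 ± 0.50 (adjusted p = 0.00193), and 2.93 without PANC1OR replicate 3. TRIB3, a pseudokinase that restrains ATF4 and Akt, had 68.1, 72.1 and 163 CPM in PANC1OR, against 17.1, 27.6 and 17.3 CPM in PANC1. The groups did not overlap, and the log2 fold change was 2.29 ± 0.39 (adjusted p = 0.00519), or 1.77 without PANC1OR replicate 3.

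SESN2 and DDIT4 (REDD1) both hold back mTORC1, SESN2 as a leucine sensor and DDIT4 through the TSC complex, and their fold changes had opposite signs. SESN2 had 31.4, 30.8 and 80.9 CPM in PANC1OR, against 12.6, 14.8 and 11.9 CPM in PANC1. The libraries did not overlap, and the log2 fold change was 1.86 ± 0.40 (adjusted p = 0.0145), or 1.24 without PANC1OR replicate 3. The SESN2 call was lost without PANC1 replicate 1, 2 or 3 (adjusted p = 0.0728, 0.0610 and 0.0812 in that order). DDIT4 ranged over 17.0 to 40.5 CPM in PANC1OR and 35.1 to 58.5 CPM in PANC1. PANC1OR replicate 3 was the only PANC1OR library to reach the PANC1 range. The log2 fold change of DDIT4 was -0.77 ± 0.38 (adjusted p = 0.222), and -1.29 without PANC1OR replicate 3 (adjusted p = 0.00251).

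Of the 6 enzymes of serine and one-carbon metabolism, 5 were higher and PSPH did not pass. Serine is made from a glycolytic intermediate by PHGDH, PSAT1 and PSPH in turn. PHGDH, the first enzyme, had 76.5, 83.3 and 172 CPM in PANC1OR, against 16.7, 31.1 and 20.7 CPM in PANC1. The groups were well apart, with a log2 fold change of 2.28 ± 0.38 (adjusted p = 0.00463), or 1.81 without PANC1OR replicate 3. PSAT1, the second, had 159.6, 167 and 158 CPM in PANC1OR, against 71.2, 81.8 and 83.7 CPM in PANC1. Its replicates were close in both lines, including PANC1OR replicate 3, and the log2 fold change was 1.03 ± 0.17 (adjusted p = 0.00364).

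PSPH, the last step of serine synthesis, ranged over 55.2 to 65.7 CPM in PANC1OR and 66.3 to 94.5 CPM in PANC1. Every PANC1OR library was below every PANC1 library. The log2 fold change of -0.39 ± 0.20 did not pass (adjusted p = 0.246), while without PANC1OR replicate 3 the adjusted p was 0.0358. Reads of PSPH can be split with its pseudogene PSPHP1, which had 152 reads over the PANC1OR libraries and 321 over the PANC1 libraries, so its count is uncertain.

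The mitochondrial folate enzymes take serine further. SHMT2, which splits serine into glycine and a one-carbon unit, had 82.7, 82.9 and 154 CPM in PANC1OR, against 35.7, 57.9 and 41.7 CPM in PANC1. There was no overlap. SHMT2 had a log2 fold change of 1.24 ± 0.31 (adjusted p = 0.0274), and the call was lost without PANC1 replicate 1 (adjusted p = 0.127) or replicate 3 (adjusted p = 0.129). MTHFD2, which oxidises the folate-bound unit, had 228, 248 and 200.1 CPM in PANC1OR, against 135, 151 and 138 CPM in PANC1.

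MTHFD2 did not overlap between the lines either, and here PANC1OR replicate 3 was the lowest of its group. Its log2 fold change of 0.68 ± 0.17 (adjusted p = 0.0286) was called, among the fits with 1 library left out, only without PANC1OR replicate 3, and it was not called with all libraries and no filter on low counts (adjusted p = 0.0572). The adjusted p of MTHFD2 was 0.121 and 0.141 without PANC1OR replicate 1 and 2, and 0.144, 0.0558 and 0.145 without PANC1 replicate 1, 2 and 3. MTHFD2 shares 1324 exonic bases with SLC4A5 on the opposite strand, so part of its count may be reads of SLC4A5. ALDH1L2, which burns the unit to carbon dioxide with gain of NADPH, had 16.1, 16.7 and 10.7 CPM in PANC1OR, against 7.22, 4.07 and 6.05 CPM in PANC1. The libraries did not overlap, with a log2 fold change of 1.32 ± 0.30 (adjusted p = 0.0175). The ALDH1L2 call was lost without PANC1OR replicate 1 (0.0591) or 2 (0.0548) and without PANC1 replicate 2 (0.0616) or 3 (0.0817), all adjusted p.

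Of the 6 other amino acid enzymes, ASNS and CBS were higher and 4 did not pass. ASNS, which makes asparagine, had 11.6, 12.1 and 9.83 CPM in PANC1OR, against 3.55, 3.13 and 1.90 CPM in PANC1. All PANC1OR libraries were above all PANC1 libraries, with a log2 fold change of 1.97 ± 0.29 (adjusted p = 0.00248). ASNS shares 2415 exonic bases with a long noncoding RNA gene on the same strand, ENSG00000284707, which had 49 reads over the PANC1OR libraries and 19 over the PANC1 libraries. Reads in the shared bases cannot be given to either gene.

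CBS and CTH form the transsulfuration route that makes cysteine. CBS had 6.28, 6.12 and 8.67 CPM in PANC1OR, against 2.61, 2.40 and 3.49 CPM in PANC1. The groups did not overlap. The log2 fold change was 1.29 ± 0.27 (adjusted p = 0.0134), and the call was lost without PANC1 replicate 1 (adjusted p = 0.0768) or 2 (adjusted p = 0.0578). The RefSeq table lists CBS among the synonyms of LOC102724560, a second locus on chromosome 21, so CBS reads can be split between copies. That locus had 21 reads over the PANC1OR libraries and 3 over the PANC1 libraries. CTH had a log2 fold change of 0.69 ± 0.30 (adjusted p = 0.172), with 3.22 to 4.52 CPM in PANC1OR and 1.83 to 3.34 CPM in PANC1. Without PANC1OR replicate 3 the CTH adjusted p was 0.0291.

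The proline enzymes ALDH18A1 and PYCR1, the first and last steps from glutamate to proline, showed no separation. ALDH18A1 ranged over 106 to 124 CPM in PANC1OR and 97.3 to 121 CPM in PANC1, with a log2 fold change of 0.04 ± 0.18 (adjusted p = 0.908). PYCR1 ranged over 48.6 to 139.96 CPM in PANC1OR and 54.7 to 112 CPM in PANC1, with a log2 fold change of 0.07 ± 0.46 (adjusted p = 0.946). PANC1OR replicate 3 alone made the upper end of the PYCR1 range, and without it the log2 fold change was -0.62 (adjusted p = 0.100). GPT2, the mitochondrial alanine aminotransferase, had 19.4 to 30.1 CPM in PANC1OR and 14.2 to 17.9 CPM in PANC1. Its libraries did not overlap, but the log2 fold change of 0.51 ± 0.25 did not pass (adjusted p = 0.216).

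Among the secreted and surface proteins, STC2 was higher, VLDLR lower, and VEGFA did not pass. STC2 (stanniocalcin-2), a secreted glycoprotein that PERK and ATF4 signalling is known to induce, had 135, 130.2 and 183 CPM in PANC1OR, against 16.7, 18.4 and 13.5 CPM in PANC1. Its groups were the farthest apart relative to their error of all 32 genes. The difference was 9.25-fold, a log2 fold change of 3.21 ± 0.23 (adjusted p = 8.05e-05). VEGFA, the angiogenic growth factor, ranged over 42.0 to 63.9 CPM in PANC1OR and 41.8 to 48.6 CPM in PANC1, with a log2 fold change of 0.15 ± 0.22 (adjusted p = 0.719).

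VLDLR, a lipoprotein receptor that ATF4 and PERK signalling can raise in other cells, was the only gene called lower with all 6 libraries. It had 1.35, 0.999 and 0.661 CPM in PANC1OR, against 3.24, 1.98 and 3.73 CPM in PANC1. The libraries did not overlap, but the counts were low, 60 reads over the PANC1OR libraries and 132 over the PANC1 libraries. Its log2 fold change was -1.54 ± 0.37 (adjusted p = 0.0238). The call was lost without PANC1OR replicate 2 (adjusted p = 0.0726), PANC1 replicate 1 (adjusted p = 0.0901) or PANC1 replicate 3 (adjusted p = 0.113).

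Under the cutoffs given in the study's design text, an absolute log2 fold change over 2 with an adjusted p under 0.01, 6 of the 32 genes remained: NUPR1, CHAC1, STC2, CEBPB, TRIB3 and PHGDH. All 6 were higher in PANC1OR, and 3.73% of all tested genes passed these cutoffs upward and 2.52% downward. Without PANC1OR replicate 3, TRIB3 (1.77) and PHGDH (1.81) fell below a log2 fold change of 2, while NUPR1, CHAC1, STC2 and CEBPB stayed above it. With GC offsets, TRIB3 was at 2.22 and PHGDH at 2.25. Called with all 6 libraries and again with each library left out in turn were 9 genes: PPP1R15A, CEBPB, NUPR1, TRIB3, CHAC1, PHGDH, PSAT1, ASNS and STC2. The other 8 higher genes, ATF4 among them, each lost the call in at least 1 of those 6 fits. Without PANC1 replicate 1, 10 genes were called higher and none lower, where 5.86% of all tested genes were higher and 4% lower. Without PANC1 replicate 3 the counts were also 10 and none, where 5.64% of all tested genes were higher and 3.67% lower.

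PANC1OR replicate 3 had the opposite effect. Without it, 20 of the 32 genes were higher and 5 lower, where 22.1% of all tested genes were higher and 22% lower. EIF2AK3, CEBPG and CTH joined the higher genes, and EIF2AK1, ATF5, DDIT4 and PSPH joined VLDLR among the lower ones. Offsets for the GC content of each gene in each library gave 20 higher and 5 lower as well, where 19.8% of all tested genes were higher and 19.3% lower. The called genes were those without PANC1OR replicate 3, with GPT2 (adjusted p = 0.00689) in place of CTH. With both PANC1OR replicate 3 and PANC1 replicate 2 left out, 21 were higher and 6 lower, where 29% of all tested genes were higher and 29.5% lower. PYCR1 was the lower gene added (log2 fold change -0.25, adjusted p = 0.0155). Over the 32 genes, GC content and the deviation of PANC1OR replicate 3 from replicates 1 and 2 had a Pearson r of 0.87, and over 18638 tested genes 0.79. This is a description across genes that share the same 3 libraries, with no test, and its part in each fold change was not tested beyond the offsets and the fits without the library.

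**Figure D3:**
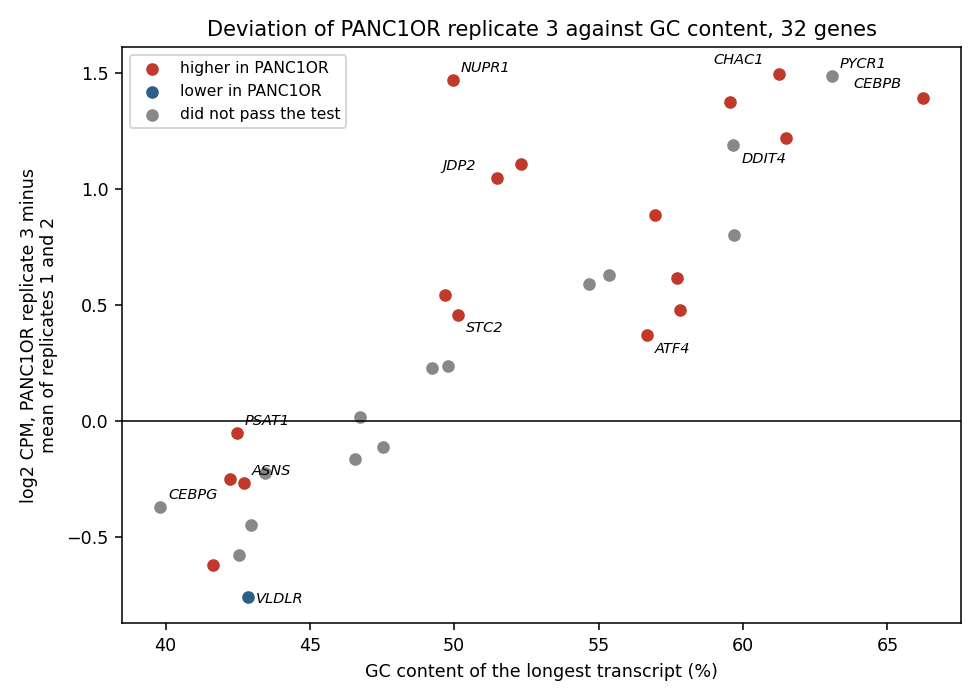
Transcript GC content in percent against the log2 deviation of PANC1OR replicate 3 from the mean of PANC1OR replicates 1 and 2, 1 point for each of the 32 genes, red if higher, blue if lower and grey if neither was called. The deviation is higher in GC-rich genes such as CEBPB than in AT-rich genes such as VLDLR, with a Pearson r of 0.87.

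**Figure D4:**
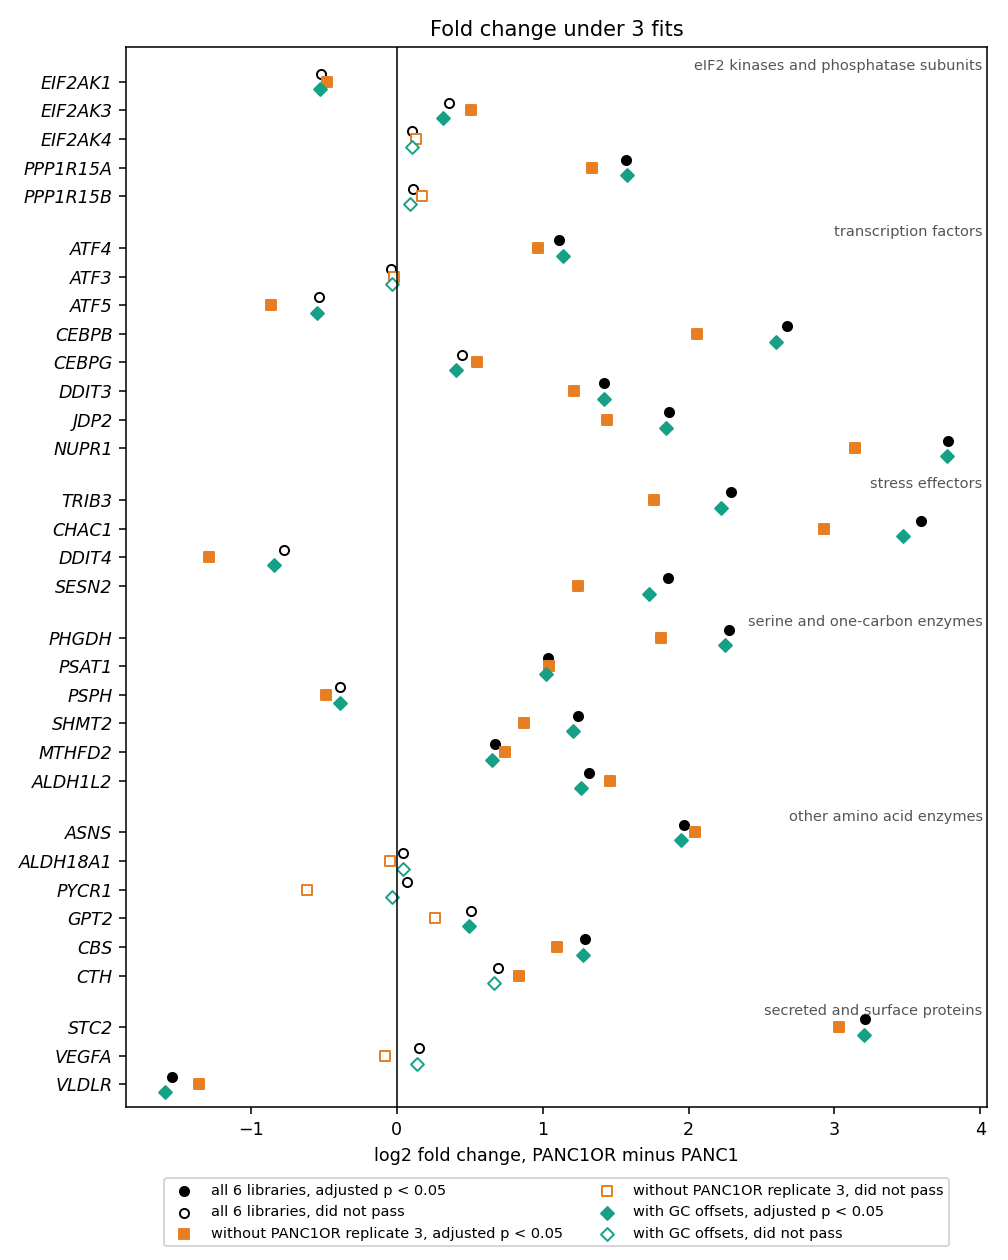
Log2 fold change of each gene, PANC1OR over PANC1, with all libraries, without PANC1OR replicate 3, and with GC offsets, filled where the adjusted p was under 0.05 and open otherwise. The 17 higher genes stay above 0 at all 3 settings. Without the library, ATF5 and DDIT4 move further down and PYCR1 turns from 0.07 to -0.62.

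Further genes tied to the same response were followed in 7 lists, of which 112 genes were tested, with 19 higher and 5 lower in PANC1OR. The counts of each list stand beside 10.3% higher and 7.5% lower over all tested genes, and several lists lie near those shares. These lists too were chosen with earlier results of these data known. Among the aminoacyl-tRNA synthetases and the tRNA exporter XPOT, 6 of 13 were higher and 1 lower, with a median log2 fold change of 0.66 against 0.04 over all tested genes. MARS1, which charges methionine tRNA, averaged 325 ± 83.0 CPM in PANC1OR and 135 ± 21.2 CPM in PANC1 (log2 fold change 1.26 ± 0.23, adjusted p = 0.00702). CARS1 (1.05 ± 0.21, adjusted p = 0.0108) and AARS1 (1.03 ± 0.22, adjusted p = 0.0144) serve cysteine and alanine, and LARS1 for leucine was lower (log2 fold change -0.74 ± 0.21, adjusted p = 0.0442). Without PANC1 replicate 1 or PANC1 replicate 3 no gene of this list was called, MARS1 coming closest with adjusted p values of 0.0502 and 0.0541.

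Of 9 amino acid transporters tested, SLC7A11 and SLC43A1 were higher and none was lower. SLC7A11, the cystine importer that feeds glutathione synthesis, averaged 86.1 ± 33.2 CPM in PANC1OR and 25.1 ± 4.60 CPM in PANC1 (log2 fold change 1.78 ± 0.33, adjusted p = 0.00744). SLC43A1 had a log2 fold change of 1.68 ± 0.48 (adjusted p = 0.0465) and was called in only 2 of the 6 fits without a library. Its counts were low, with 88 reads over all 6 libraries. It averaged 1.35 ± 0.589 CPM in PANC1OR and 0.420 ± 0.149 CPM in PANC1. SLC3A2, the heavy chain that pairs with SLC7A11, had a log2 fold change of 0.60 ± 0.32 (adjusted p = 0.260).

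Of 22 other targets of ATF4 or CHOP, 6 were higher and 1 lower. GDF15, a secreted stress cytokine, averaged 155 ± 104 CPM in PANC1OR and 20.1 ± 4.80 CPM in PANC1 (log2 fold change 2.94 ± 0.47, adjusted p = 0.00341, and a log2 fold change of 2.23 without PANC1OR replicate 3). The pro-apoptotic BH3 genes parted: PMAIP1 (NOXA) averaged 24.4 ± 7.24 CPM in PANC1OR and 4.10 ± 0.607 CPM in PANC1 (2.58 ± 0.30, adjusted p = 0.000748), whereas BCL2L11 (BIM) averaged 17.7 ± 1.06 CPM in PANC1OR and 43.4 ± 5.83 CPM in PANC1 (-1.29 ± 0.20, adjusted p = 0.00312). TXNIP, an inhibitor of thioredoxin, had a log2 fold change of 1.68 ± 0.28 (adjusted p = 0.00462). These 4 genes and SLC7A11 kept their calls with each library left out in turn.

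A list of eIF2 and eIF2B subunits, other initiation factors and regulators of the eIF2 kinases had 1 of 18 genes higher, none lower and a median log2 fold change of -0.12; with 1 library left out it had 0 to 4 higher and 0 to 6 lower. That gene was EIF2S2, the beta subunit of eIF2 (1.09 ± 0.21, adjusted p = 0.00944), whose call was lost without PANC1 replicate 1 (adjusted p = 0.0585) or replicate 3 (adjusted p = 0.0659). The IRE1 and ATF6 arms of the unfolded protein response had 3 of 18 genes higher, none lower and a median of -0.04, and 1 to 6 higher and 0 to 7 lower with 1 library left out. They were EDEM1, which passes misfolded glycoproteins to degradation (1.33 ± 0.18, adjusted p = 0.00180), the sensor gene ERN1 (1.12 ± 0.24, adjusted p = 0.0148) and the chaperone gene HSPA5 (0.64 ± 0.16, adjusted p = 0.0295). The ERN1 call was lost without PANC1 replicate 1 (adjusted p = 0.0669), and the HSPA5 call in 4 of the 6 fits, with adjusted p up to 0.150.

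Hypoxia genes, some of which share regulation with VEGFA, DDIT4 and STC2, had 1 of 15 higher and 1 lower, with a median log2 fold change of -0.07. ADM was higher (0.98 ± 0.25, adjusted p = 0.0275), a call that was lost without PANC1 replicate 1, 2 or 3 (adjusted p = 0.134, 0.0656 and 0.128 in that order). The prolyl hydroxylase gene EGLN3 averaged 0.0692 ± 0.0635 CPM in PANC1OR and 2.49 ± 1.10 CPM in PANC1 (adjusted p = 0.00177). Of 18 serine, folate, proline and transsulfuration enzymes outside the main list, none was higher and 2 were lower, among them GCLM, a subunit of the glutathione-forming ligase (log2 fold change -1.10 ± 0.25, adjusted p = 0.0202). The GCLM call was lost without PANC1 replicate 1, 2 or 3 (adjusted p = 0.0875, 0.0604 and 0.0753 in that order).

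**Figure D5:**
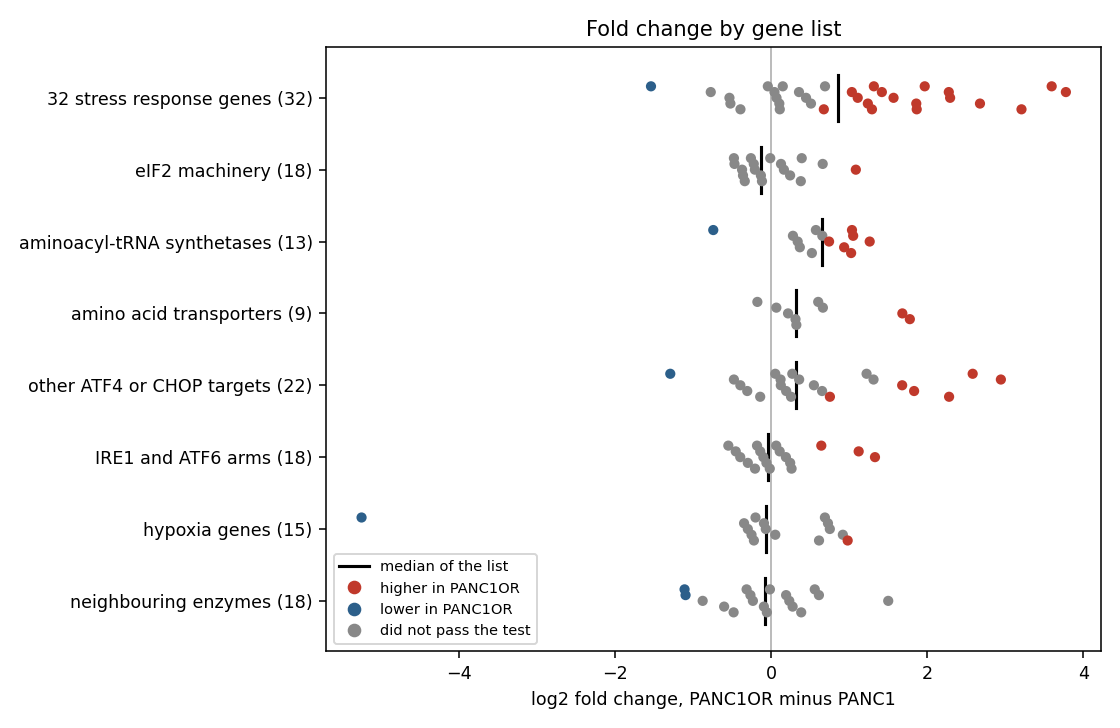
Log2 fold changes, PANC1OR over PANC1, of the tested genes in the 32-gene list and in the 7 further lists, with the median of each list as a bar and called genes in red (higher) or blue (lower). The median is 0.86 for the 32 genes, 0.66 for the aminoacyl-tRNA synthetases and between -0.12 and 0.32 for the other 6 lists.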

How the data were processed

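Per the labels, RNA was extracted with Trizol and libraries were made with a Kapa mRNA Hyper Prep kit. Per the submitters' processing notes, reads were checked with FastQC 0.11.5, trimmed with cutadapt, aligned to GRCh38 with STAR 2.5 and counted per gene with featureCounts (Subread 1.6.2). The authors deposited raw counts per gene; the sources used here give neither the strand setting nor the annotation release. A further 5 unnamed, empty columns of the table were not used.

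Counts were filtered with filterByExpr, scaled with TMM and tested with edgeR 4.0.16 (glmQLFit, glmQLFTest, R 4.3.3), 3 samples against 3, with Benjamini-Hochberg adjustment over 18751 genes. The SE of a log2 fold change is its size over the square root of F. The script was tested on simulated data. Alternatives were DESeq2 1.42.0, its size factors, the likelihood ratio test, no filter, at least 1 CPM in 3 libraries, a replicate block, loess GC offsets (span 0.3), and fits without libraries. Positions and GC come from GENCODE on GRCh38 and promoters from RefSeq.

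The members and lists were chosen with earlier results of these data known. Values in every library were given for members past the threshold (mean of 1 CPM or more) and for ATF4, ATF3, DDIT3, EIF2AK1, EIF2AK3, EIF2AK4, PPP1R15A and CEBPB, and up to 4 genes with the smallest p were named from each further list. BCL2L11, PMAIP1 and the others named there came from that rule, while SLC43A1, LARS1 and XPOT were named after their values were seen. A gene of the further lists that met the naming rule is not reported here. RNA-seq depth limits low genes such as VLDLR.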

Additional observations from a re-analysis of the deposited data

How the results depend on the processing

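All 17 higher genes kept a positive log2 fold change in each of the 15 alternatives. Members called higher ranged from 10 to 20 and lower from 0 to 5 over the fits with 1 library left out, and all tested genes from 1103 to 4340 higher and 718 to 4323 lower. The 7 further lists ranged from 5 to 39 higher and 2 to 24 lower. GC offsets gave 5 members lower, 3720 genes higher and 3619 lower over all tested genes, and 38 higher and 21 lower in the further lists. Leaving out PANC1OR replicate 3 and PANC1 replicate 2 together gave 21 members higher and 6 lower, 5664 and 5758 over all tested genes, and 49 and 32 in the further lists. DESeq2's Wald test gave 17 members higher and 2 lower, EIF2AK1 being added. The cause of these shifts was not tested.

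The replicate block gave 16 members higher and 0 lower (MTHFD2, adjusted p = 0.101, and VLDLR, adjusted p = 0.0610, were lost), 1402 and 922 over all tested genes, and 12 higher in the further lists; with GC offsets it gave 4 members lower, 3209 and 3118 over all tested genes, and 34 and 18 in the further lists. Replicate numbers do not pair the samples by the labels, and deviations of same-numbered libraries correlated at 0.44, -0.43 and -0.21, so that not every library correlated best with its own number.

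The sign turned for 4 genes that were not called with all 6 libraries. PYCR1 (0.07) was -0.047 with the replicate block, -0.035 with GC offsets and -0.010 with block and offsets. With both libraries left out it was -0.25 and was called lower (adjusted p = 0.0155). ATF3 (-0.04) was 0.19 and VEGFA (0.15) was -0.032 with both libraries left out. Over the fits without 1 library, the log2 fold change ranged from -0.62 to 0.45 for PYCR1, -0.26 to 0.19 for ATF3, -0.047 to 0.13 for ALDH18A1 and -0.084 to 0.25 for VEGFA. Read depth limits ATF3 and VLDLR.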
